A study of Mus musculus with 24 samples.

Results

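The 10 genes described here code for the lipases, lipase regulators and coat proteins of the fat cell's lipid droplet. They are Pnpla2, Lipe, Mgll, Abhd5, G0s2, Plin1, Plin2, Plin4, Cidec and Fitm2, and each was taken from the count matrix as the row whose Ensembl gene ID maps to that symbol, which gave 10 rows of 39017. All 10 passed the filter on low counts in every comparison. The study sequenced total RNA, depleted of ribosomal RNA, from the 4th mammary subcutaneous fat of C57BL/6 mice, to examine this depot in lean and in obese animals, both beside a breast tumor and away from it. The labels give the diet as Chow or HFD (high-fat diet), and the tissue as no tumor, contralateral (from the tumor-bearing mouse, on the side away from the tumor) or peritumoral (beside the tumor). This makes 6 groups of 4 libraries each, 24 in all: Chow no-tumor, Chow contralateral, Chow peritumoral, HFD no-tumor, HFD contralateral and HFD peritumoral. The sources used here do not state the tumor's type, the composition and length of the diets or the age of the mice. The titles carry the letter L for all peritumoral libraries and R for all the others, so that letter and the position near a tumor cannot be told apart. Whether each library of a group stands for its own mouse is not said in the labels; the p-values therefore rest on the variation among libraries, part or all of which may be technical.

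Fat cells store triglyceride in a single large droplet. Its release is stepwise: Pnpla2 codes for ATGL, which removes the first fatty acid from triglyceride, Lipe codes for hormone-sensitive lipase, which acts on diglyceride, and Mgll codes for monoglyceride lipase, which completes the release of glycerol. Abhd5 (CGI-58) is the co-activator of ATGL, and G0s2 is its inhibitor. Perilipin 1, from Plin1, coats the droplet of fat cells and in the resting cell holds Abhd5 away from ATGL, whereas perilipin 2, from Plin2, coats droplets in most cell types, lipid-laden macrophages among them, and perilipin 4, from Plin4, is an abundant coat protein of fat cells. Cidec (FSP27) joins droplets into larger ones, and Fitm2 is a protein of the endoplasmic reticulum that takes part in the budding of droplets.

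The sequences upstream of Plin1 and Plin2 are shown because these related coat genes differed most in their response next to the tumor on HFD. Both genes lie on the minus strand, and each sequence runs 5′ to 3′ from 250 bases before the RefSeq start site to 5 bases after it, in GRCm38.p6, the assembly that UCSC names mm10. Capitals in the Plin1 sequence, chr7:79732772-79733026, mark matches to the C/EBP motif TTGCNNAA, and capitals in the Plin2 sequence, chr4:86670055-86670309, mark a match to the E-box CACGTG.
Plin1: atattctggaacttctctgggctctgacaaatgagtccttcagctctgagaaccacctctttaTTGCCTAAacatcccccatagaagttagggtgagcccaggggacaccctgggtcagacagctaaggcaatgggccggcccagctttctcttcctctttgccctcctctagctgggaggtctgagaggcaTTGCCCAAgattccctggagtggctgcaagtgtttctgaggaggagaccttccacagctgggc
Plin2: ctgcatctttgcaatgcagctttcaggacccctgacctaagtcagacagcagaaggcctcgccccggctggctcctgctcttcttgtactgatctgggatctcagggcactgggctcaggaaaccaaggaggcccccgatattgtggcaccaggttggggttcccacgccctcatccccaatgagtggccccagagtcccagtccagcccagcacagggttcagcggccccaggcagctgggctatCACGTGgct
The Plin1 matches cover positions -187 to -180 and -58 to -51 from the start site, and the Plin2 match covers -4 to 2. Windows of 300 bases around each start were searched on both strands. The C/EBP motif was found in 2 of the 13 windows of the 10 genes (Plin1 and Cidec) and in 10.8% of all 32851 windows. The E-box was found in 3 of the 13 windows (Plin2, Mgll and Lipe) and in 7.15% of all windows. The PPAR/RXR direct repeat, AGGNCA followed by any 1 base and AGGNCA again, was found in 0 of the 13 windows and in 0.381% of all. A match describes letters only; binding was not measured.

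The libraries held 9130125 to 18204747 counts assigned to genes, and the smallest count of any of the 10 genes in any library was 642, for Abhd5. In a principal component analysis of all genes the HFD peritumoral libraries lay apart from the other 20, at 51.89 to 92.27 on the leading axis against 36.73 at most, and their replicate 1 lay nearest to the others. Chow contralateral replicate 2 had 11.367% of its counts in Gm42418, and the mitochondrial ribosomal RNA genes took 20.54% to 35.8% of the counts over the 24 libraries. The label of fat tissue was checked on 12 fat cell markers outside the 10 genes: Adiponectin (Adipoq) averaged between 1167 and 2626 CPM (counts relative to the library total, scaled by the trimmed mean of M values) in the 6 groups. Libraries also held other cells' RNA: skeletal muscle markers summed to between 77.8 and 4793 CPM in Chow contralateral fat and to 79.4 CPM at most in HFD contralateral fat, and mammary epithelial markers to between 987 and 1497 CPM in the 12 Chow libraries and 166 to 867 CPM in the 12 HFD libraries. The milk protein gene Csn2 averaged at most 0.160 CPM in any group and was at 0 in Chow no-tumor and HFD contralateral fat, and the brown fat gene Ucp1 averaged at most 0.719 CPM.

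The 10 genes ranged from Cidec and Plin4, among the most abundant mRNAs of this fat, to Fitm2 and Abhd5 at lower levels. They kept nearly the same order in each group. The TPM scale divides counts by gene length and by the library's total, so levels of different genes within a group can be compared. It includes the mitochondrial ribosomal RNA genes and is not scaled by the trimmed mean of M values. Differences between groups are therefore given in CPM below. Cidec was highest of the 10 in every group, at 1254 ± 224 TPM (SD, n = 4) in Chow no-tumor fat and 2433 ± 347 TPM in HFD contralateral fat. Plin4 followed at 900 ± 277 TPM and 1639 ± 176 TPM in those groups. Plin1 at 668 ± 34.2 TPM and Pnpla2 at 614 ± 84.0 TPM in Chow no-tumor fat did not differ beyond their spread, nor did they in HFD contralateral fat, where they stood at 898 ± 59.6 and 818 ± 28.7 TPM. Lipe followed at 316 to 352 TPM in the libraries of Chow no-tumor fat, overlapping with G0s2 at 304 ± 53.6 TPM. Mgll lay below G0s2 in the 3 Chow groups and above it in the 3 HFD groups: its mean was 202 ± 20.8 TPM in Chow no-tumor fat and 431 ± 59.0 TPM in HFD contralateral fat, against 375 ± 40.7 TPM for G0s2 in the latter, where the libraries of both genes overlapped. Plin2 at 80.8 ± 10.3 TPM and Fitm2 at 71.4 ± 5.91 TPM overlapped in Chow no-tumor fat, and Abhd5 was lowest at 46.4 ± 6.61 TPM. In HFD peritumoral fat Plin2, at 199 ± 24.9 TPM, reached the range of G0s2 at 238 ± 31.8 TPM; in the other 5 groups these did not overlap. Ranked among all genes of a library by this level, Cidec stood between the 15th and the 42nd place, Plin4 between the 27th and the 71st, and Abhd5 between the 1109th and the 2909th.

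**Figure D1:**
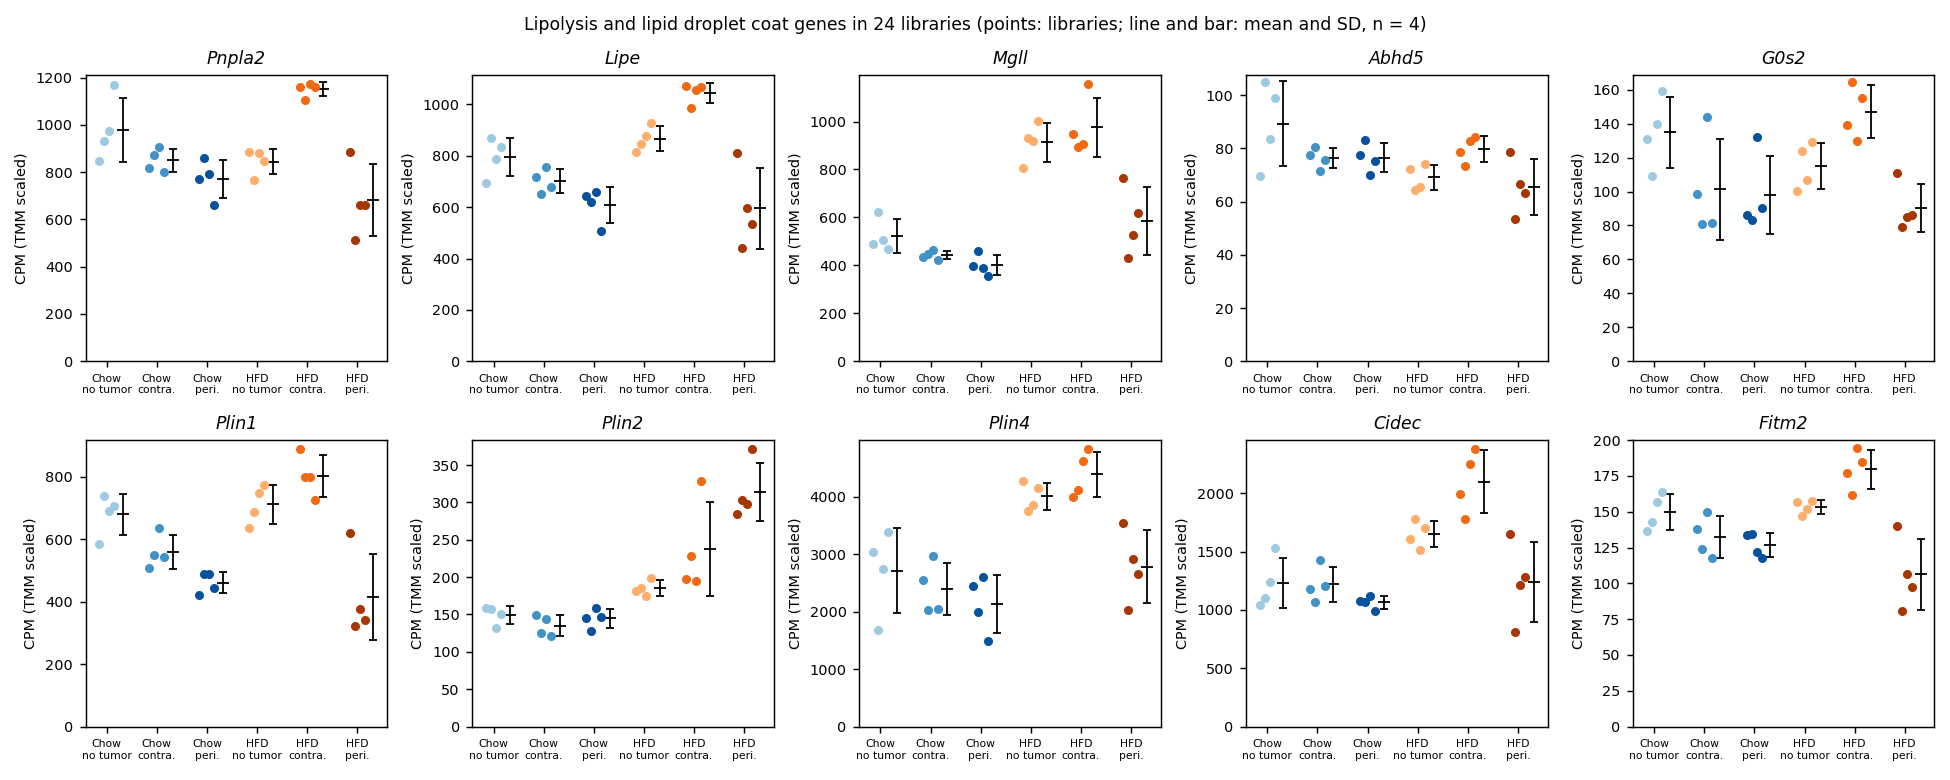
Level of each of the 10 genes in CPM (y axis, one panel a gene) in the 6 groups (x axis), with a point for each of the 4 libraries and a bar for the group mean. In 9 panels the HFD peritumoral libraries reach below those of HFD contralateral fat; in the Plin2 panel they lie at 285 to 371 CPM, the highest group mean.

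The rows lie in mm10 on chromosome 7 for Pnpla2 (ENSMUSG00000025509, 141455198 to 141460743, plus strand), Lipe (ENSMUSG00000003123, 25379527 to 25398710, minus) and Plin1 (ENSMUSG00000030546, 79721164 to 79732776, minus). Mgll (ENSMUSG00000033174, 88724412 to 88828360, plus) and Cidec (ENSMUSG00000030278, 113424634 to 113435760, minus) lie on chromosome 6. Abhd5 (ENSMUSG00000032540) lies on chromosome 9 at 122351608 to 122381524 on the plus strand, and G0s2 (ENSMUSG00000009633) on chromosome 1 at 193272161 to 193273188 on the minus strand. Plin2 (ENSMUSG00000028494) lies on chromosome 4 at 86648386 to 86670060, Plin4 (ENSMUSG00000002831) on chromosome 17 at 56100591 to 56109802 and Fitm2 (ENSMUSG00000048486) on chromosome 2 at 163466379 to 163472629, all on the minus strand. Each value is the count over all exons of the gene, UTRs included. Of the exon bases of Abhd5, 26.3% also belong to a gene on the opposite strand, as do 5.84% for Lipe, 2.14% for Fitm2, 1.85% for Mgll and 0.104% for Plin4; for the other 5 genes none do. The sources used here do not say whether counting used the strand, and reads of the shared bases of Abhd5 cannot be told apart from those of its antisense neighbor.

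HFD against Chow in fat of mice without a tumor asks how these genes differed between the diets. Mgll, Plin2, Plin4 and Cidec rose and none of the 10 fell, by edgeR's quasi-likelihood test with Benjamini-Hochberg adjusted p under 0.05 over 15827 genes; 24.9% of all genes tested passed, 13.6% higher and 11.3% lower. Mgll stood at 491, 624, 506 and 469.5 CPM in the Chow libraries and at 806, 929, 919.5 and 1001 CPM in the HFD libraries, which did not overlap. It rose by 0.82 ± 0.10 on the log2 scale (SE, adjusted p = 0.000132). Mgll, the last lipase of the chain, was the only one of the 3 lipases that passed: Pnpla2 differed by -0.20 ± 0.10 (adjusted p = 0.148) and Lipe by 0.13 ± 0.08 (adjusted p = 0.271).

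Among the coats, Plin2 rose from 159, 157, 132 and 150.2 CPM to 182, 186, 174 and 199 CPM, without overlap (0.32 ± 0.07, adjusted p = 0.00658). Plin4 stood at 3034, 1675, 2747 and 3396 CPM on Chow and at 4268, 3762, 3856 and 4152 CPM on HFD, and did not overlap (0.58 ± 0.18, adjusted p = 0.0458). The Chow libraries of Plin4 were widely spread, with replicate 2 lowest. Cidec, the droplet fusion gene, averaged 1230.4 ± 218 CPM (SD, n = 4) on Chow and 1652 ± 113 CPM on HFD, and its libraries overlapped (0.44 ± 0.11, adjusted p = 0.0147). Plin1 and Fitm2 stood near their Chow levels, with differences of 0.08 ± 0.09 and 0.05 ± 0.07. The co-activator Abhd5 and the inhibitor G0s2 had differences of -0.36 ± 0.12 (adjusted p = 0.058) and -0.22 ± 0.12 (adjusted p = 0.212). Over the 10 genes the median difference was 0.11, beside -0.02 over all genes. In 3 of the 10 the groups did not overlap, beside 27.4% of all genes.

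Of the 12 fat cell markers, 4 rose and 3 fell in the same comparison, with sums of 21970 to 27330 CPM on Chow and 23520 to 27370 CPM on HFD, and all 6 endothelial markers rose, with sums of 401 to 441 and 711 to 739 CPM. Lipid-laden macrophage markers rose in 5 of 8, with a median of 0.61 and sums of 2751 to 4346 and 3877 to 5046 CPM. Mammary epithelial markers fell in 4 of the 8 tested, and stromal fibroblast markers fell in 4 of 8 and rose in 1. The mitochondrial ribosomal RNA genes took 29.65% to 34.77% of the counts on Chow and 20.54% to 22.01% on HFD. The part of these differences in the result was not tested. In these bulk samples fewer cells of a type and less RNA per cell cannot be told apart, here and below. The call of Plin4 was lost on leaving out any one library other than Chow no-tumor replicates 2 and 4, with log2 values of 0.55 to 0.64 and adjusted p of 0.0745 to 0.103, and without the low-count filter (0.58, adjusted p = 0.153); that of Plin2 was lost with all 24 libraries in 1 fit (0.35, adjusted p = 0.0601). Without Chow no-tumor replicate 1, Abhd5 fell by 0.46 (adjusted p = 0.00308) and Pnpla2 by 0.27 (adjusted p = 0.0451) on the log2 scale, and without Chow no-tumor replicate 2, G0s2 fell by 0.30 (adjusted p = 0.0479). Abhd5 was also called lower by DESeq2 (-0.36, adjusted p = 0.0286) and with all 24 libraries in 1 fit (-0.33, adjusted p = 0.0349).

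HFD against Chow in contralateral fat asks the same of fat away from the tumor in tumor-bearing mice. There 8 of the 10 genes rose, none fell, and in those 8 the 4 HFD libraries all lay above the 4 Chow libraries. The background was high: 49.3% of 15913 genes passed, 24.5% higher and 24.8% lower, and 46.2% did not overlap. The median of the 10 was 0.52, beside -0.01 over all genes.

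All 3 lipases rose. Pnpla2 went from 816, 872, 908 and 802 CPM to 1160, 1107, 1175 and 1159 CPM (0.40 ± 0.07 on the log2 scale, edgeR adjusted p = 0.000856). Lipe went from 718, 652, 758 and 678 CPM to 1070, 987, 1057 and 1066 CPM (0.54 ± 0.07, adjusted p = 0.00012). Mgll rose most, from 433, 447, 463 and 424 CPM to 948, 892, 908 and 1156 CPM (1.11 ± 0.09, adjusted p = 3.81e-06). Neither regulator of ATGL passed by edgeR. Abhd5 averaged 76.3 ± 3.72 and 79.7 ± 4.88 CPM (0.03 ± 0.06, adjusted p = 0.75). G0s2 had 98.4, 80.9, 144 and 81.5 CPM on Chow and 139, 164, 129.9 and 155 CPM on HFD (0.50 ± 0.18, adjusted p = 0.0516), and its groups overlapped through Chow replicate 3. Without Chow contralateral replicate 3, G0s2 rose by 0.71 (adjusted p = 0.000209), and it also passed by DESeq2 (0.50, adjusted p = 0.00746) and with all 24 libraries in 1 fit (0.54, adjusted p = 0.0123).

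All 3 coat genes rose as well. Plin1 went from 509, 548, 637 and 543 CPM to 887, 799, 799 and 724 CPM (0.48 ± 0.09, adjusted p = 0.00103). Plin2 went from 149.7, 125, 144 and 121 CPM to 197, 228, 195 and 329 CPM (0.77 ± 0.17, adjusted p = 0.00528), with HFD replicate 4 well above the rest. Plin4 averaged 2399.7 ± 452 CPM on Chow and 4391 ± 398 CPM on HFD (0.83 ± 0.13, adjusted p = 0.00031). Cidec rose from 1218 ± 152 to 2102 ± 271 CPM (0.75 ± 0.11, adjusted p = 0.000279) and Fitm2 from 132 ± 14.6 to 179.6 ± 13.8 CPM (0.40 ± 0.08, adjusted p = 0.0016). Lipid-laden macrophage markers rose in 7 of 8 and fell in 1, with a median of 0.97 and sums of 2851 to 3624 CPM on Chow and 4205 to 5517 CPM on HFD, and macrophage markers rose in 5 of 8, with sums of 978 to 1257 and 1285 to 1539 CPM. The fat cell markers had 6 of 12 higher and 1 lower, with sums of 20420 to 22310 CPM on Chow and 29500 to 31220 CPM on HFD. Muscle markers fell in 7 of 8 and mammary epithelial markers in 8 of the 8 tested, while red blood cell markers rose in 5 of 5, with sums of 187 to 209 and 309.7 to 496 CPM; the part of these cells and tissues in the result was not tested.

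HFD against Chow in peritumoral fat left Plin2 as the gene with the clearest difference. Its Chow libraries had 145, 128, 159 and 146 CPM and its HFD libraries 285, 303, 298 and 371 CPM, without overlap. It rose by 1.08 ± 0.12 on the log2 scale, 2.112-fold (edgeR adjusted p = 0.000531). Mgll was the other gene that passed, at 398, 458, 389.5 and 356 CPM on Chow and 763, 429.6, 526 and 618 CPM on HFD, with overlap (0.50 ± 0.17, adjusted p = 0.0412). Thus 2 of the 10 rose and none fell, where 33.6% of 15919 genes passed, 16.4% higher and 17.2% lower; 1 of the 10 did not overlap, beside 33.3% of all genes.

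The other 8 lay between -0.30 for Fitm2 (± 0.15, adjusted p = 0.141) and 0.34 for Plin4 (± 0.21, adjusted p = 0.229). Among the lipases, Pnpla2 averaged 771 ± 82.1 CPM on Chow and 681 ± 152 CPM on HFD, and Lipe 608 ± 68.7 and 595 ± 158 CPM. Plin1, the fat cell coat, averaged 461 ± 33.4 and 415 ± 138 CPM (-0.19 ± 0.19, adjusted p = 0.462). The median over the 10 was -0.11, beside 0.02 over all genes. Macrophage markers rose in 6 of 8, with sums of 1110 to 1941 CPM on Chow and 2313 to 3165 CPM on HFD. Lipid-laden macrophage markers rose in 5 of 8 and none fell, with a median of 0.98. The mean log2 CPM of that list did not overlap, at 4.365 to 4.812 on Chow and 5.706 to 6.253 on HFD. Its summed CPM, in which abundant genes weigh most, did overlap, at 2718 to 3624 CPM on Chow and 2121 to 3678 CPM on HFD. The list includes Lpl, which is also a fat cell marker. Mammary epithelial markers fell in 7 of the 8 tested, and red blood cell markers rose in 5 of 5. Of the 12 fat cell markers 1 rose and 3 fell. The part of these cells in the Plin2 result was not tested. The Mgll call was lost on leaving out any one library other than HFD peritumoral replicate 2 (log2 0.36 to 0.57, adjusted p 0.0512 to 0.0998), and with the replicate number as a block (0.48, adjusted p = 0.0655). Without HFD peritumoral replicate 1, Plin1 fell by 0.44 (adjusted p = 0.0153), Fitm2 by 0.45 (adjusted p = 0.0138) and Abhd5 by 0.35 (adjusted p = 0.0297), which made 1 higher and 3 lower, where 6003 of 16189 genes were called.

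**Figure D2:**
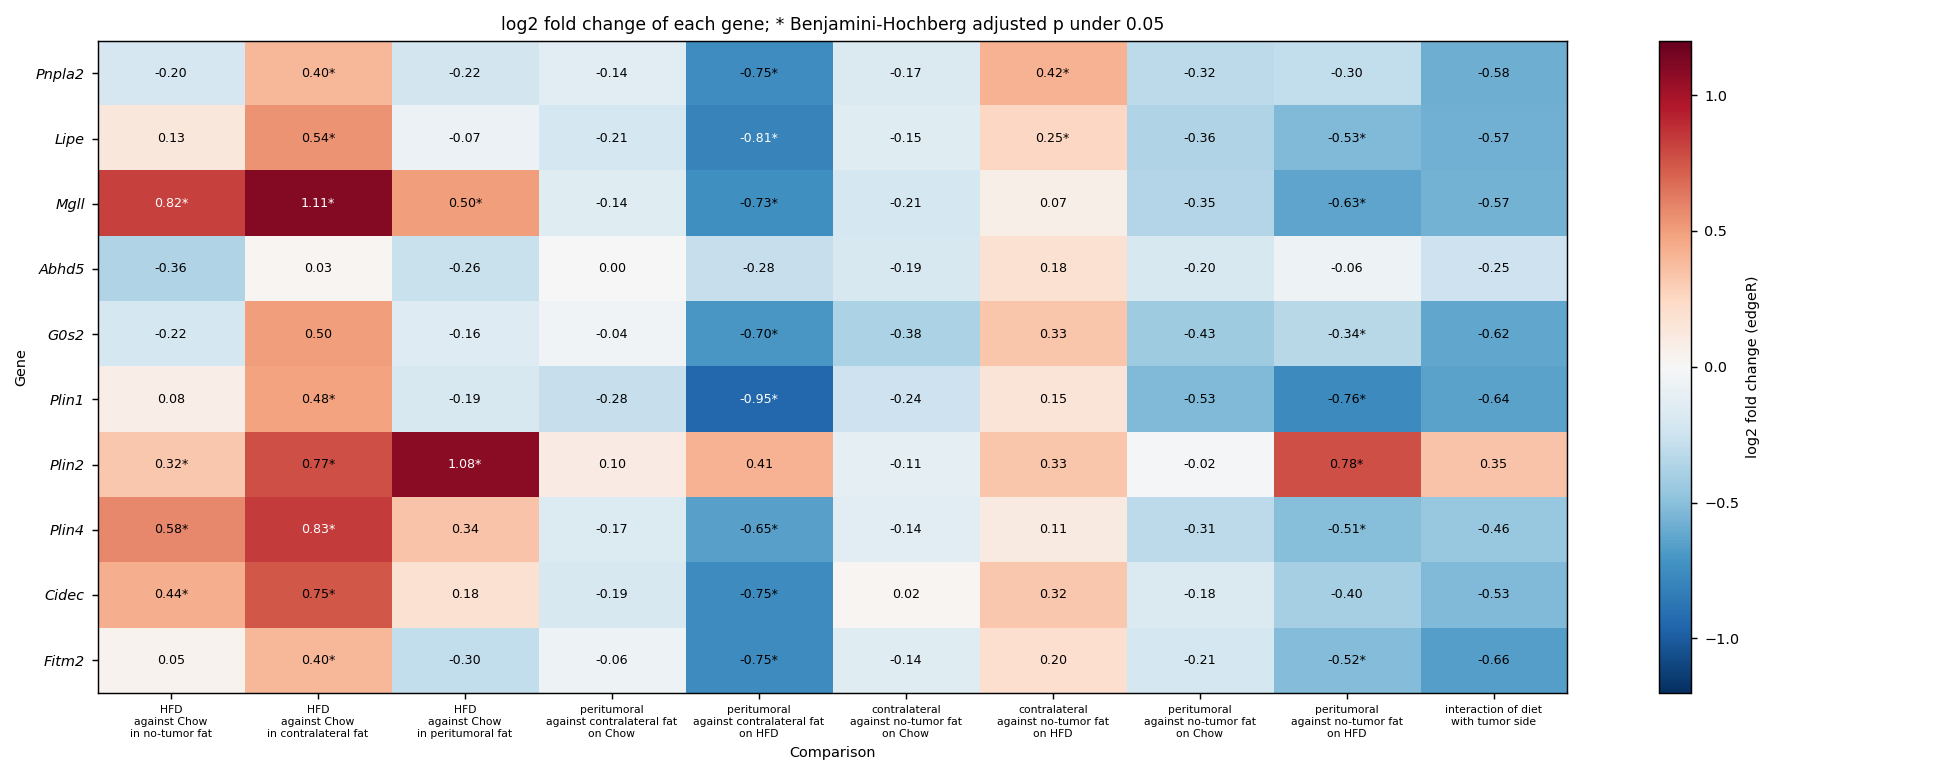
The log2 fold change from edgeR for each of the 10 genes (rows) in the 9 comparisons of 2 groups and in the interaction of diet with tumor side (columns), red for higher and blue for lower in the group named before the word against; an asterisk marks an adjusted p under 0.05. The column for peritumoral against contralateral fat on HFD is blue with 8 asterisks except for Plin2 at 0.41 and Abhd5 at -0.28 without one, and the Plin2 row is red in all 4 of its called cells.

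Peritumoral against contralateral fat asks what differed next to the tumor, and on HFD 8 of the 10 genes fell there and none rose. All 3 lipases, the ATGL inhibitor G0s2, the coats Plin1 and Plin4, and Cidec and Fitm2 fell to between 0.5193 and 0.6373 of their contralateral level, and in each of the 8 the groups did not overlap. In the background 29.5% of 15627 genes passed, 16.8% higher and 12.7% lower, and 31.5% did not overlap. The median over the 10 was -0.74, beside -0.02 over all genes.

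Pnpla2 had 1160, 1107, 1175 and 1159 CPM in contralateral fat and 884, 515, 663 and 663 CPM in peritumoral fat (-0.75 ± 0.15 on the log2 scale, edgeR adjusted p = 0.00772). Lipe had 1070, 987, 1057 and 1066 CPM and 812, 441, 595 and 534 CPM (-0.81 ± 0.17, adjusted p = 0.00896). Mgll had 948, 892, 908 and 1156 CPM and 763, 429.6, 526 and 618 CPM (-0.73 ± 0.17, adjusted p = 0.0142). In all 3 lipases peritumoral replicate 1 was the highest of its group and replicate 2 the lowest. G0s2 had 139, 164, 129.9 and 155 CPM and 111, 79.1, 85.2 and 86.2 CPM (-0.70 ± 0.12, adjusted p = 0.004). The co-activator Abhd5 did not pass, at 78.6, 73.3, 82.7 and 84.3 CPM and 78.6, 53.3, 66.7 and 63.2 CPM (-0.28 ± 0.11, adjusted p = 0.0799). Its groups overlapped through peritumoral replicate 1, and without that library it fell by 0.37 (adjusted p = 0.0106), as it did with the replicate number as a block (-0.29, adjusted p = 0.0426).

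Plin1 fell most, from 887, 799, 799 and 724 CPM to 619, 323, 377 and 341 CPM (-0.95 ± 0.20, adjusted p = 0.00904). Plin4 fell from 3998, 4115, 4626 and 4826 CPM to 3541, 2023, 2920 and 2660 CPM (-0.65 ± 0.17, adjusted p = 0.0214). Again replicate 1 was the highest peritumoral library for both coats. Plin2 had 197, 228, 195 and 329 CPM in contralateral fat and 285, 303, 298 and 371 CPM in peritumoral fat, with overlap through contralateral replicate 4 (0.41 ± 0.17, adjusted p = 0.0944). Without contralateral replicate 4 it rose by 0.61 (adjusted p = 0.0146), with the replicate number as a block by 0.44 (adjusted p = 0.0127), and with all 24 libraries in 1 fit by 0.43 (adjusted p = 0.0111). Cidec fell from 1993, 1776, 2256 and 2381 CPM to 1653, 815, 1217 and 1281 CPM (-0.75 ± 0.20, adjusted p = 0.0212), and Fitm2 from 177, 162, 194 and 185 CPM to 139.8, 81.0, 107 and 97.2 CPM (-0.75 ± 0.15, adjusted p = 0.00722).

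Fat cell markers outside the 10 genes moved the same way in this comparison: 10 of 12 fell and none rose, with a median of -0.82, and their sum was 29500 to 31220 CPM in contralateral and 13390 to 25460 CPM in peritumoral fat. Peritumoral replicate 1, the highest for the 8 fallen genes, was also the highest for these markers. Macrophage markers rose in 7 of 8, from sums of 1285 to 1539 CPM to 2313 to 3165 CPM; Adgre1 averaged 68.3 ± 4.82 and 127 ± 20.6 CPM. Lipid-laden macrophage markers rose in 1 of 8 and fell in 2, with a median of 0.05. Their sums, in which abundant genes weigh most, were 4205 to 5517 CPM in contralateral and 2121 to 3678 CPM in peritumoral fat. Their mean log2 CPM overlapped, at 5.337 to 6.473 in contralateral and 5.706 to 6.253 in peritumoral fat. Lpl is on both this list and that of the fat cell markers. The part of the cell makeup in the fall of the 8 genes was not tested. The calls of Cidec and Plin4 were lost without contralateral replicate 3 (-0.71 and -0.62, adjusted p = 0.0602 and 0.0615), without contralateral replicate 4 (-0.69 and -0.60, adjusted p = 0.0578 and 0.0566) or without peritumoral replicate 4 (-0.77 and -0.63, adjusted p = 0.0513 and 0.059), and that of Cidec also without peritumoral replicate 3 (-0.74, adjusted p = 0.0513).

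On Chow the same comparison called none of the 10 genes and 0 of 16057 genes, or 0%, by edgeR; DESeq2 called 19 genes and likewise 0 of the 10. At an unadjusted p under 0.05, edgeR had 1381 genes (8.6%) and, of the 10, 1: Plin1, with 509, 548, 637 and 543 CPM in contralateral and 421, 489, 488 and 445 CPM in peritumoral fat (-0.28 ± 0.09, adjusted p = 0.559). Plin1 was also the 1 gene of the 10 without overlap, beside 5.13% of all genes. The other 9 lay between -0.21 for Lipe and 0.10 for Plin2, and the median was -0.14, beside -0.01 over all genes. Plin2 averaged 135 ± 13.9 CPM in contralateral and 145 ± 12.9 CPM in peritumoral Chow fat. Of the fat cell and macrophage markers none passed on Chow.

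The interaction of diet with tumor side tests whether the peritumoral difference itself differed between the diets. None of 16859 genes passed by edgeR (0%), and so none of the 10 did, while 3349 genes (19.9%) and 7 of the 10 had an unadjusted p under 0.05. DESeq2 called 727 genes, and of the 10 it called Pnpla2, Lipe, Mgll, Plin1 and Fitm2, all more negative on HFD. By edgeR the largest of the 10 was Fitm2, at -0.66 ± 0.17 (adjusted p = 0.103), followed by Plin1 at -0.64 (adjusted p = 0.146), while Plin2 stood at 0.35 ± 0.20 (adjusted p = 0.351). The median over the 10 was -0.57, beside 0.02 over all genes. Without HFD peritumoral replicate 1, edgeR called 1911 of 16996 genes and 6 of the 10, all lower: Plin1 at -0.89 (adjusted p = 0.00301), Fitm2 at -0.82 (adjusted p = 0.00413), Lipe at -0.75 (adjusted p = 0.00712), Pnpla2 at -0.72 (adjusted p = 0.00771), Mgll at -0.71 (adjusted p = 0.0154) and Cidec at -0.69 (adjusted p = 0.0357). A difference between the diets in the peritumoral fall thus depended on the tool and on that library.

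Contralateral against no-tumor fat asks whether a distant tumor went with a difference. The HFD contralateral libraries entered the comparison with peritumoral fat too, and the no-tumor libraries enter the next one, so these results share their values. On HFD, Pnpla2 and Lipe rose and none of the 10 fell, where 6.08% of 15718 genes passed, 2.72% higher and 3.37% lower. Pnpla2 had 884, 767, 883 and 846 CPM in no-tumor fat, all below the contralateral libraries at 1107 to 1175 CPM (0.42 ± 0.06, edgeR adjusted p = 0.00437). Lipe had 814, 844, 878 and 928 CPM in no-tumor fat, also below contralateral fat at 987 to 1070 CPM (0.25 ± 0.06, adjusted p = 0.0378). G0s2 and Fitm2 did not overlap either, but did not pass (0.33 ± 0.10, adjusted p = 0.068, and 0.20 ± 0.06, adjusted p = 0.0644), so 4 of the 10 did not overlap, beside 15.8% of all genes. Mgll, which rose with diet in each position, differed by 0.07 here (adjusted p = 0.699).

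Cidec stood at 0.32 ± 0.09 (adjusted p = 0.0584). Without HFD contralateral replicate 2, Cidec rose by 0.40 (adjusted p = 0.0322) and Fitm2 by 0.25 (adjusted p = 0.0375). The call of Lipe was lost on leaving out any one library other than HFD contralateral replicate 4 and HFD no-tumor replicate 4 (0.22 to 0.27, adjusted p 0.0516 to 0.108), with the replicate number as a block (0.25, adjusted p = 0.0759) and with all 24 libraries in 1 fit (0.25, adjusted p = 0.335). Pnpla2 was lost in the fit of all 24 libraries (0.43, adjusted p = 0.0677), and G0s2 gained with the block (0.33, adjusted p = 0.0212). DESeq2 called Cidec (adjusted p = 0.0161), G0s2 (adjusted p = 0.0236) and Fitm2 (adjusted p = 0.0429) higher too, and without the low-count filter Cidec and Fitm2 passed (adjusted p = 0.0185 and 0.0447). Macrophage markers rose in 4 of 8 and fat cell markers in 1 of 12 here; mammary epithelial markers fell in 4 of the 8 tested. On Chow none of the 10 passed by edgeR or DESeq2, where edgeR called 7.95% of 15946 genes, 4.93% higher and 3.02% lower; 1 of the 10 had an unadjusted p under 0.05, beside 27.9% of all genes, and 1, Mgll, did not overlap, beside 19% of all genes. The values lay between -0.38 for G0s2 (adjusted p = 0.248) and 0.02 for Cidec. Without Chow contralateral replicate 3, G0s2 fell by 0.59 (adjusted p = 0.0366).

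Peritumoral against no-tumor fat on HFD showed the coat genes moving in opposite directions. Plin2 rose from 182, 186, 174 and 199 CPM to 285, 303, 298 and 371 CPM, without overlap (0.78 ± 0.10, 1.713-fold, edgeR adjusted p = 0.000488). Plin1 fell from 636, 685, 749 and 773 CPM to 619, 323, 377 and 341 CPM, without overlap (-0.76 ± 0.19, adjusted p = 0.0124). Plin4 fell from 4009 ± 239.6 to 2786 ± 629 CPM (-0.51 ± 0.16, adjusted p = 0.0313). In all, 1 of the 10 rose and 6 fell, where 40.9% of 15773 genes passed, 23% higher and 17.9% lower; 6 of the 10 did not overlap, beside 39.6% of all genes.

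The others that fell were Mgll (-0.63 ± 0.16, adjusted p = 0.0134), Lipe (-0.53 ± 0.17, adjusted p = 0.0293), Fitm2 (-0.52 ± 0.14, adjusted p = 0.0169) and G0s2 (-0.34 ± 0.12, adjusted p = 0.047). Pnpla2 stood at -0.30 (adjusted p = 0.133), Cidec at -0.40 (adjusted p = 0.108) and Abhd5 at -0.06 (adjusted p = 0.669). Fat cell markers fell in 7 of 12, macrophage markers rose in 7 of 8 and endothelial markers fell in 5 of 6. Mammary epithelial markers fell in 8 of the 8 tested, with a median of -1.15, red blood cell markers rose in 5 of 5, and lipid-laden macrophage markers rose in 4 of 8 and fell in 2. The part of these cells in the result was not tested. Without HFD peritumoral replicate 1, Pnpla2 fell by 0.44 (adjusted p = 0.00947) and Cidec by 0.56 (adjusted p = 0.0134). The calls of Lipe and Plin4 were each lost on leaving out any one library other than HFD peritumoral replicates 1 and 2 (Lipe -0.56 to -0.49, adjusted p 0.0508 to 0.0767; Plin4 -0.54 to -0.48, adjusted p 0.055 to 0.0775). That of G0s2 was lost on leaving out any one other than HFD no-tumor replicate 1 and HFD peritumoral replicate 1 (-0.37 to -0.27, adjusted p 0.0698 to 0.129), with the block (-0.34, adjusted p = 0.0798) and with all 24 libraries in 1 fit (-0.35, adjusted p = 0.0915). That last fit called Pnpla2 (-0.31, adjusted p = 0.0332) and Cidec (-0.41, adjusted p = 0.0268) lower.

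On Chow the same comparison called none of the 10, where 0.132% of 15926 genes passed by edgeR, 0.0628% higher and 0.0691% lower. An unadjusted p under 0.05 was found for 6 of the 10, beside 18.9% of all genes, and 4 did not overlap (Plin1, Lipe, Mgll and Fitm2), beside 12.4% of all genes. Plin1 had the largest difference, from 584, 737, 689.7 and 705 CPM to 421, 489, 488 and 445 CPM (-0.53 ± 0.10, adjusted p = 0.068). Plin1 passed by DESeq2 (adjusted p = 0.000182), without the filter on low counts (adjusted p = 0.0198) and with all 24 libraries in 1 fit (adjusted p = 0.0293), and Lipe by DESeq2 (-0.36, adjusted p = 0.0419). Plin2 averaged 149 ± 12.4 and 145 ± 12.9 CPM (-0.02, adjusted p = 0.949). Over the 10 the median was -0.31, beside 0.01 over all genes.

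Ratios within a library do not depend on the scaling between libraries, and 3 were compared in each of the 9 comparisons by an exact two-sided permutation test, 27 tests in all. With 4 libraries against 4 the exact test cannot go below p = 0.0286, and 7 of the 27 reached it. Each of these permutation tests had an adjusted p of 0.11, so none passed after adjustment. With this floor a ratio could pass only if many more than 7 tests had reached it. The adjusted values therefore cannot decide whether a ratio differed. The ratio of Plin2 to Plin1, the general coat against the fat cell coat, averaged -2.18 on the log2 scale in Chow no-tumor, -2.05 in Chow contralateral, -1.67 in Chow peritumoral, -1.94 in HFD no-tumor and -1.79 in HFD contralateral fat. In HFD peritumoral fat it was -1.12, -0.09, -0.34 and 0.12, above every library of the groups it was compared with. The gap to HFD contralateral fat was very small, with replicate 4 there at -1.139 and HFD peritumoral replicate 1 at -1.118. The differences were 1.43 against HFD contralateral, 1.58 against HFD no-tumor and 1.32 against Chow peritumoral fat (exact permutation p = 0.0286 for each). On Chow, peritumoral fat was 0.38 above contralateral and 0.51 above no-tumor fat, with overlap (exact permutation p = 0.0571 and adjusted p = 0.171 for each).

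The ratio of the co-activator Abhd5 to the lipase Pnpla2 was lowest in HFD contralateral fat, at -3.85 ± 0.06 on the log2 scale (SD, n = 4). Its difference was -0.38 from Chow contralateral fat and -0.24 from HFD no-tumor fat, and HFD peritumoral fat lay 0.49 above it, none overlapping (exact permutation p = 0.0286 for each). HFD peritumoral fat, at -3.37 ± 0.10, also lay 0.25 above HFD no-tumor fat without overlap (exact permutation p = 0.0286). The ratio of the inhibitor G0s2 to Pnpla2 averaged between -3.11 and -2.87 in the 6 groups and overlapped in all 9 comparisons, with exact permutation p from 0.286 to 0.971. These ratios show unequal change between 2 genes, not which of them changed.

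**Figure D3:**
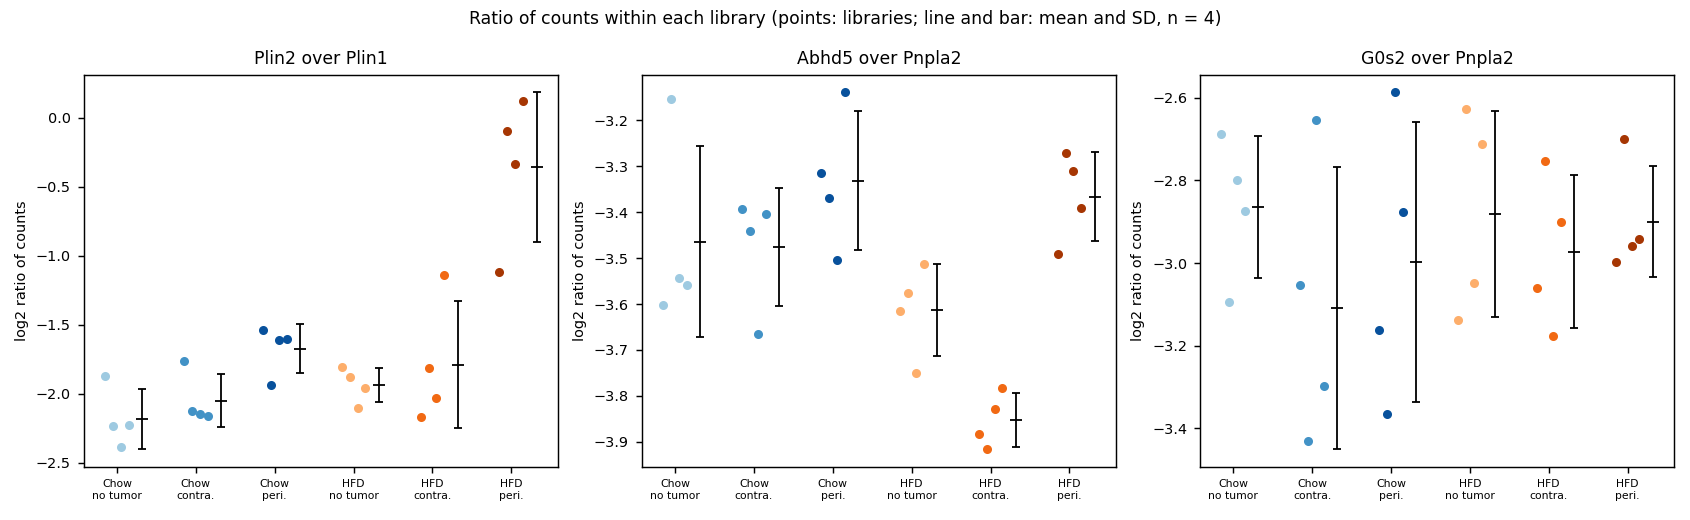
The log2 ratio of counts within each library (y axis) for G0s2 over Pnpla2, Abhd5 over Pnpla2 and Plin2 over Plin1 (panels) in the 6 groups (x axis), with a point for each library and a bar for the mean. The Plin2 over Plin1 panel shows the HFD peritumoral libraries between -1.12 and 0.12, above the HFD no-tumor libraries.

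The other proteins of the droplet were taken from a list of 18 genes, of which 16 could be tested. In peritumoral against contralateral fat on HFD 2 of the 16 rose and 8 fell, with a median of -0.38. Of all genes tested there, 16.8% rose and 12.7% fell. Hilpda, an inhibitor of ATGL that hypoxia and lipid loading induce, was among those that rose: it had 7.93, 7.56, 5.29 and 9.02 CPM in contralateral and 11.9, 21.6, 21.4 and 16.8 CPM in peritumoral fat (1.27 ± 0.22, edgeR adjusted p = 0.00457). Hilpda was also higher on HFD than on Chow in contralateral fat (1.32 ± 0.19, adjusted p = 0.000226) and in peritumoral fat (1.79 ± 0.40, adjusted p = 0.00935), and in HFD peritumoral against no-tumor fat (2.05 ± 0.20, adjusted p = 0.000121). Its rise thus went with that of Plin2 in the last 3 comparisons, but not in others. In HFD contralateral against no-tumor fat Hilpda rose (0.74 ± 0.16, edgeR adjusted p = 0.0211) and Plin2 did not pass (adjusted p = 0.261). With diet in no-tumor fat Plin2 rose and Hilpda was not called. G0s2, the other inhibitor of ATGL, fell in both HFD peritumoral comparisons. Its call against no-tumor fat was lost on leaving out any of 6 of the 8 libraries. Among the genes that fell beside the HFD tumor were Ces1d and Ces1f, carboxylesterases that can act on stored lipid. Ces1d had 759, 663, 743 and 583 CPM in contralateral and 562, 255, 313 and 248 CPM in peritumoral fat (-0.99 ± 0.25, adjusted p = 0.0173), and Ces1f differed by -0.89 ± 0.17 (adjusted p = 0.00716).

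With diet, 3 of the 16 rose and 1 fell in no-tumor fat. In contralateral fat 7 rose and 1 fell, and in peritumoral fat 3 rose and 4 fell. Of all genes, 24.9%, 49.3% and 33.6% passed in these comparisons, so the totals in both directions lie near the background. By direction, 13.6%, 24.5% and 16.4% of all genes rose and 11.3%, 24.8% and 17.2% fell. In contralateral fat a larger share of the 16 rose, and a smaller share fell, than of all genes. Plin3, a coat found in most cell types, rose in all 3 positions, by 0.27 ± 0.07 (adjusted p = 0.0164), 0.54 ± 0.05 (adjusted p = 1.36e-05) and 0.71 ± 0.11 (adjusted p = 0.0014). It averaged 53.6 ± 1.65 CPM in HFD contralateral and 52.4 ± 2.34 CPM in HFD peritumoral fat. Lipa, the acid lipase of the lysosome, averaged 83.8 ± 7.42 CPM in Chow peritumoral and 144 ± 27.7 CPM in HFD peritumoral fat (0.74 ± 0.14, adjusted p = 0.00425), and rose in HFD peritumoral against no-tumor fat by 0.76 ± 0.13 (adjusted p = 0.0017). Pnpla3, a relative of Pnpla2, fell in that comparison (-1.36 ± 0.25, adjusted p = 0.00288), from 118, 183, 139.5 and 169 CPM to 91.9, 39.3, 45.2 and 59.1 CPM. In that comparison 3 of the 16 rose and 5 fell, beside 23% higher and 17.9% lower of all genes. Against no-tumor fat 2 rose and none fell in HFD contralateral fat, beside 2.72% and 3.37% of all genes. None of the 16 passed in the 3 Chow comparisons of position or in the interaction, where at most 7.95% of all genes passed.

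Genes upstream of lipolysis, from the adrenergic and insulin pathways to the glycerol channel, formed a list of 18, all tested. In peritumoral against contralateral fat on HFD 1 rose and 11 fell, with a median of -0.51, beside 16.8% higher and 12.7% lower of all genes. Prkar2b, the regulatory subunit of protein kinase A that prevails in fat cells, averaged 729 ± 32.2 CPM in contralateral and 402 ± 112 CPM in peritumoral fat (-0.85 ± 0.18, edgeR adjusted p = 0.00896), and the adenylyl cyclases Adcy3 and Adcy6 fell by 0.41 (adjusted p = 0.00372) and 0.65 (adjusted p = 0.00839). In HFD peritumoral against no-tumor fat 2 rose and 7 fell, beside 23% and 17.9% of all genes. In HFD contralateral against no-tumor fat 3 rose, among them Adcy3 (0.34, edgeR adjusted p = 0.00697), and none fell. Of all genes 2.72% rose and 3.37% fell there. With diet, 3 rose and 2 fell in no-tumor fat, 8 rose and 3 fell in contralateral fat, and 1 rose and 3 fell in peritumoral fat. Of all genes, 24.9%, 49.3% and 33.6% passed in these comparisons. Aqp7, the channel that lets glycerol leave the fat cell, averaged 80.9 ± 4.38 CPM in Chow and 159.9 ± 8.95 CPM in HFD no-tumor fat (0.99 ± 0.07, adjusted p = 1.12e-06), a rise in the same comparison in which Mgll, the lipase that frees glycerol, rose by 0.82. Irs1, the insulin receptor substrate, fell with HFD by 0.88 in no-tumor fat (adjusted p = 0.000688) and by 1.51 in peritumoral fat (adjusted p = 0.00282), and Pde3b, through which insulin lowers cyclic AMP, averaged 434 ± 39.9 and 236 ± 81.0 CPM in Chow and HFD peritumoral fat (-0.92 ± 0.21, adjusted p = 0.00836). None of the 18 passed in the Chow comparisons of position or in the interaction, where at most 7.95% of all genes passed.

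**Figure D4:**
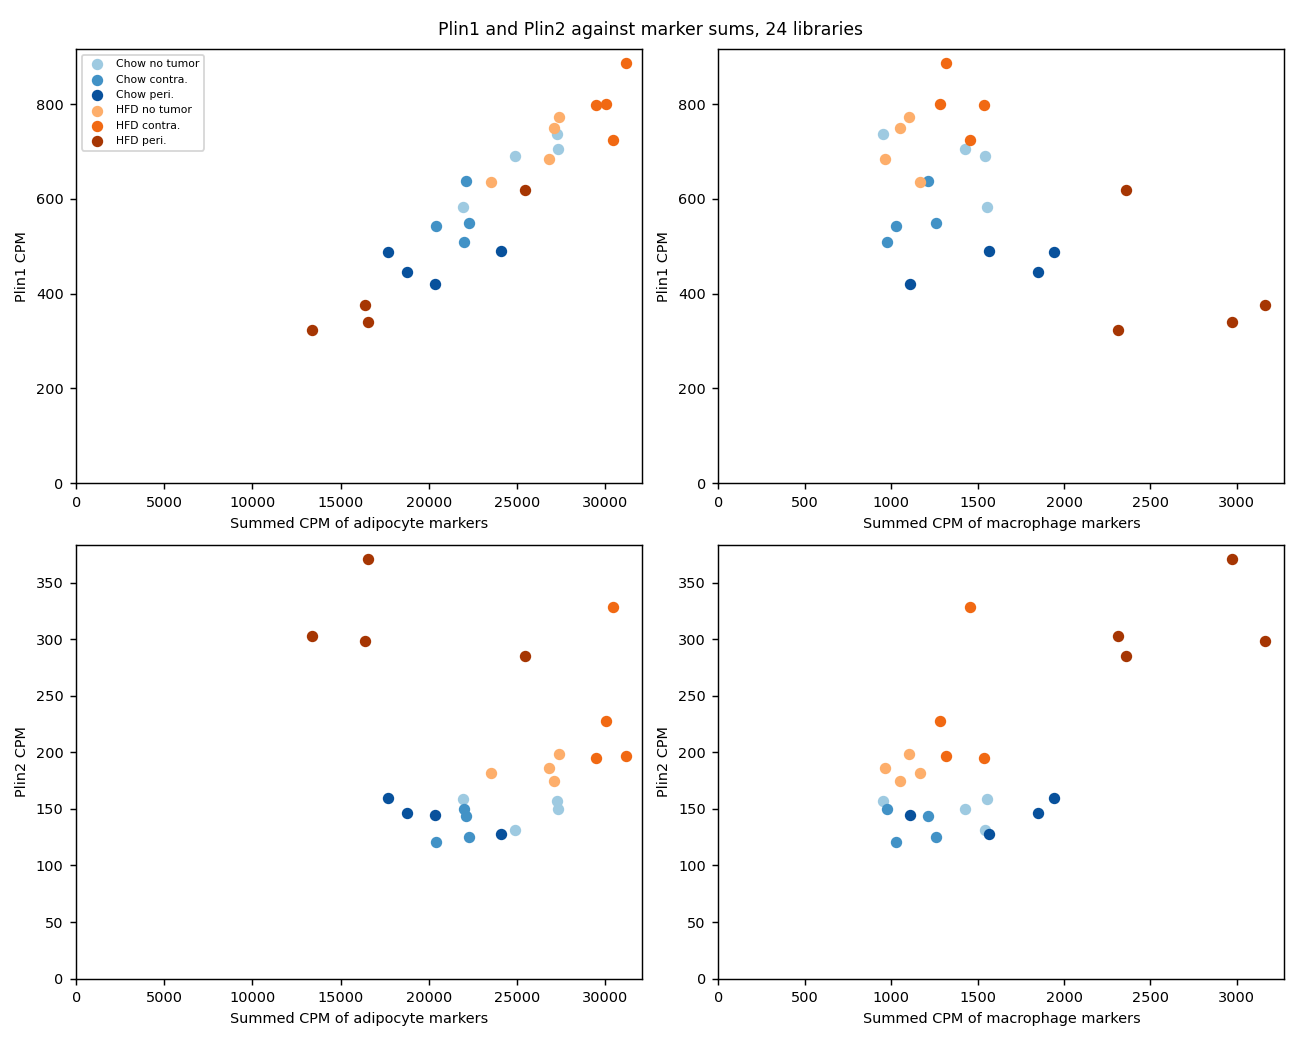
Plin1 and Plin2 in CPM (y axes) against the summed CPM of the fat cell markers and of the macrophage markers (x axes), with a point for each of the 24 libraries, colored by group. The HFD peritumoral libraries lie at 2313 to 3165 CPM of macrophage markers and 285 to 371 CPM of Plin2.

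Across the 24 libraries, which fall into 6 groups, the 45 pairs among the 10 genes had Pearson correlations of log2 CPM from -0.418 to 0.94 with a median of 0.655; libraries of a group share their condition, so these are descriptions. The genes outside the 10 whose pattern was most like each of them were found by the same measure over 24 libraries. For Plin2 they included Atp6v1b2 (r = 0.956) and Lgals3 (0.945), which code for a subunit of the lysosomal proton pump and galectin 3. For Plin1 they were Vegfb (0.954), Car3 (0.951) and Tmem43 (0.949). Pxmp4, which codes for a peroxisomal membrane protein, came up for Lipe (0.97), Fitm2 (0.97) and Pnpla2 (0.894). Lipe further had Mfn2 (0.958) and Ormdl3 (0.954), Fitm2 had Agmo (0.95) and Pdzd2 (0.935), and Pnpla2 had Dlc1 (0.933) and Adipor2 (0.924), an adiponectin receptor. Mgll was most like Hipk2 (0.982), Cav1 (0.979) and Acadm (0.977), of which Cav1 codes for caveolin 1 and Acadm for an enzyme of fatty acid oxidation. Plin4 was most like Apol6 (0.952), Cmklr1 (0.946) and Anapc16 (0.94), and genes most like Cidec included Ywhab (0.947) and Gne (0.945). Abhd5 and G0s2 had the weakest likenesses, with Mipep (0.904), Slc27a1 (0.872) and Nipsnap2 (0.835) for Abhd5 and Prkce (0.817), Adcy5 (0.808) and Adipor2 (0.791) for G0s2.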

How the data were processed

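Total RNA of 24 fat libraries was measured in 6 groups of 4, grouped by the labels' diet and sample type. The authors deposited a matrix of whole-number counts per gene, with a length column in bases (used for TPM). TopHat, DESeq and the mm10 genome are named, per the submitters' processing notes; their versions, the counter and its strand setting are not given in the sources used here. Symbols came from the reference tables for 37607 of 39017 rows. Depth was 9130125 to 18204747 counts per library. Library pairs within a group differed by more than sampling noise (median chi-square per gene 0.93 to 7.41 over 36 pairs, against 0.455 from noise alone).

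The deposited counts were tested with edgeR 4.0.16 (limma 3.58.1, R 4.3.3): quasi-likelihood F test with robust fitting and TMM factors, filterByExpr (at least 10 counts in enough libraries, 15 in total), Benjamini-Hochberg adjustment over all genes, threshold 0.05. Only the groups compared entered a fit, in 9 comparisons of 2 groups and 1 interaction. Ratios were log2 of counts plus 0.5, tested by exact permutation. On simulated counts with 200 genes changed, the test recovered 61% to 88% of 2-fold and 13% to 66% of 1.5-fold changes in the 9 comparisons, and 48% and 15% in the interaction. The changed genes were drawn at random, low-count genes among them, and most comparisons of the real data called far more genes. These rates therefore do not describe the 10 genes. Alternatives were DESeq2 1.42.0, RLE factors, no filter, all 24 libraries in 1 fit, a replicate block and leaving out each library.

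All 10 genes are named in every comparison; of the other droplet and upstream lists, up to 4 genes a comparison that passed, lowest adjusted p first, could be named; likenesses are the 3 named genes outside the 10 with the highest Pearson r of log2 CPM (prior count 2) among those with at least 5 CPM in a group; a few are not reported here. The genes and lists were chosen with earlier results of these data known. Promoter sequences are RefSeq's in GRCm38.p6, matched by symbol for 10 of the 10 genes.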

Additional observations from a re-analysis of the deposited data

Results flagged for a closer look

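Of 78 sets of 4 libraries checked (the 10 genes' CPM and the 3 ratios in each of the 6 groups), 4 held a library far from the others, measured as its gap to the nearest library over the range of the set. Chance alone flags about 1 in 20 such sets. Lipe in HFD contralateral fat had a gap of 0.839 of the range, with replicate 2 lowest at 987 CPM. G0s2 in Chow peritumoral fat had a gap of 0.862, with replicate 3 highest at 132 CPM. The log2 ratio of Abhd5 to Pnpla2 in Chow no-tumor fat had a gap of 0.871, with replicate 2 highest at -3.15. The log2 ratio of Plin2 to Plin1 in Chow contralateral fat had a gap of 0.909, with replicate 1 highest at -1.76.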

How the results depend on the processing

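For the 10 genes in 10 fits, no called value changed direction under any alternative run. Of the 100 values under each setting, 88 kept their call with DESeq2 and 12 gained one; 100 kept it with RLE factors; without the low-count filter 1 was lost and 3 gained; with all 24 libraries in 1 fit 4 were lost and 7 gained; of 880 values with a library left out, 44 were lost and 20 gained. Uncalled values changed sign in 1 case without the filter, 2 with all 24 libraries and 18 with a library left out. The cause was not tested.

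The number of the 10 genes called moved as follows. In HFD against Chow peritumoral fat it was 2, and 1 to 4 with a library left out. In contralateral against no-tumor fat on HFD it was 2, 5 with DESeq2, 4 without the filter, 0 with all 24 libraries and 1 to 3 with a library left out; on Chow it was 0, and 0 to 1. In peritumoral against no-tumor fat on Chow it was 0, 2 with DESeq2, 1 without the filter and 1 with all 24 libraries, and on HFD 7, and 4 to 9 with a library left out. In the interaction it was 0, 5 with DESeq2, 1 with all 24 libraries and 0 to 6 with a library left out. In the other 4 comparisons it stayed within 1.5 times under each setting.

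With the replicate number as a block, 1 of the 10 genes (Plin2) was called in HFD against Chow peritumoral fat instead of 2, 3 values lost a call and 3 gained one, and no other call changed. The labels do not say what a number shares. Deviations of same-numbered libraries correlated between -0.518 and 0.501, in no comparison all above 0.1. For 0 to 3 of the 4 libraries in the group named first, the best match in the other group had the same number. It was 3 in peritumoral against contralateral fat on HFD, where r ran from 0.001 to 0.501. Pairing was not shown by this check, so the block is not a paired analysis. If peritumoral and contralateral libraries share mice, which the labels do not say, the main fits leave that pairing out.

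Counts over all genes moved by more than 1.5 times in HFD against Chow peritumoral fat (5353, 8799 with all 24 libraries), contralateral against no-tumor fat on Chow (1268, 692 with all 24 and 356 with the block) and on HFD (956, 238 and 629), peritumoral against no-tumor fat on Chow (21, 651 with DESeq2, 222 without the filter and 821 with all 24), peritumoral against contralateral fat on Chow (0, 19 with DESeq2 and 3 without the filter) and the interaction (0, 727 with DESeq2, 7 without the filter, 333 with all 24 and 43 with the block). With a library left out they ranged from 3102 to 6003 in the first of these, 375 to 1986 and 365 to 1220 in the next, 1 to 78 in peritumoral against no-tumor fat on Chow and 0 to 1911 in the interaction, and in peritumoral against contralateral fat on HFD from 2750 to 6425, beside 4610. Without the filter the median of all genes in HFD against Chow contralateral fat moved from -0.01 to -0.12. Depth limited none of the 10 genes, whose counts were 642 or more; 4 libraries a group limit the exact tests to p = 0.0286.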
